A study of Saccharomyces cerevisiae with 9 samples.

Results

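The boundaries of the mature 18S and 25S rRNAs are the 4 places in the 35S precursor at which a spacer meets a sequence that ends up in the ribosome. They were taken as fixed windows of the deposited position tables. At the 18S 5′ end, the 18S 3′ end and the 25S 5′ end the windows hold 30 positions on each side, and at the 25S 3′ end 30 mature and 10 spacer positions. These 220 positions, 100 on spacer sides and 120 on mature sides, are 3.21% of the 6858 positions of the repeat. The windows were set by coordinate, and no measured value enters their definition, although they were chosen with earlier results of these data known. Cultures of Saccharomyces cerevisiae were harvested in early, mid and late log, 3 subphases of logarithmic growth at rising cell density, with 3 biological replicates in each. All were grown on YPD at 30 °C with nutation. All carried one genotype, MATa with the alleles ade2-1, can1-100, his3-11, leu2-3,112, trp1-1 and ura3-1, in which the second largest subunit of RNA polymerase I (Pol I) was tagged as RPA135-(HA)3-(His)7::TRP1. Growth subphase was thus the only difference that the labels give between the groups. The assay was native elongating transcript sequencing (NET-seq), in which Pol I is immunoprecipitated and the last base of each attached RNA is read.

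Pol I transcribes one long precursor, and the mature ends are made from it by cutting and trimming. The 5′ end of 18S is made by cleavage at site A1, which depends on the U3 snoRNP within the small-subunit processome. The 3′ end of 18S is made at site D, where the endonuclease Nob1 cuts the 20S precursor in the cytoplasm. The 5′ end of 25S (site C1) is trimmed by the exonucleases Rat1 and Xrn1 after a cut within internal transcribed spacer 2 (ITS 2). The 3′ end of 25S (site B2) is trimmed, with Rex exonucleases, after Rnt1 has cut the external spacer ETS 2. An RNA that has already been cut or trimmed at one of the 3′ ends also ends there. Reads on the mature sides can include copurified mature rRNA, and next to the 3′ ends the reads of nascent and of processed RNA cannot be told apart in these libraries.

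The sequences of the 4 windows are shown because every value below is a count of RNAs that end on one of these bases. They are read from the deposited tables in the direction of transcription and did not differ at any base from the R64 assembly. They lie on the minus strand of chromosome XII in the repeat annotated as RDN37-2, at chrXII:466840-466899, chrXII:465040-465099, chrXII:464289-464348 and chrXII:460913-460952. The changes from spacer to mature bases fall on the annotated ends of RDN18-2 and RDN25-2. Each window occurs at 2 places in the assembly, so the values cannot be given to a single copy of the repeat. Capitals mark the mature rRNA and lower case the spacer.
18S 5′ end: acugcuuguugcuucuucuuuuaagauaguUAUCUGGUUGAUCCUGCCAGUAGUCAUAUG
18S 3′ end: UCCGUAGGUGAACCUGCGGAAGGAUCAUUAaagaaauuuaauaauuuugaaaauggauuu
25S 5′ end: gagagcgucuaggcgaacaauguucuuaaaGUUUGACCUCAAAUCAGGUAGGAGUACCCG
25S 3′ end: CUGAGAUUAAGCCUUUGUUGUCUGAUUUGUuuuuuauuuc
In the numbering of the repeat these windows are positions 671 to 730, 2471 to 2530, 3222 to 3281 and 6618 to 6657. The spacer side of the 18S 3′ end holds no C. The 25S 3′ end lies in a run of 6 U, from position 6647 to 6652, that crosses from the last mature base into ETS 2.

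The deposited values are RPM, reads per 1000000 of a library's reads over positions 1 to 6739. A high share at one place therefore lowers all others. An even change in transcription over the repeat leaves RPM unchanged. Neither fewer transcribing cells nor less transcription per cell can be read from these values. The libraries held 350940.0 reads (early log replicate 3) to 7307420.5 reads (mid log replicate 2), a 20.8-fold range, as recovered from the steps of the RPM values. A floor of 3 reads was worth 8.55 RPM in the shallowest and 0.411 RPM in the deepest library. It is given for scale and was not used as a filter, so some values below lie under it. According to the methods, mid log was sequenced in a run of its own, late log shared its run with early log replicate 1, and early log replicates 2 and 3 shared another. Comparisons with mid log are thus also comparisons between runs, and subphase and run cannot be told apart there. Mid log replicate 1 stood apart from mid log replicates 2 and 3 on most spacer sides. At both 5′ ends it lay within or just above the range of early log there. Its label was kept, and whether the label is right was not tested. Every mid log mean and SD includes this library, and values without it are given where a result rests on it. It was picked out from these same values, so a lower p without it is no independent support.

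The 3′ ends carried far more reads than the 5′ ends. The spacer side of the 18S 5′ end averaged 8.24 ± 2.98, 3.98 ± 3.87 and 3.16 ± 0.828 RPM per position in early, mid and late log (SD, n = 3 each, here and for the other sides). At the 25S 5′ end the spacer side averaged 19.6 ± 4.71, 12.6 ± 10.7 and 8.76 ± 1.22 RPM. Both lay below the rest of their spacers, which fell over the subphases as well. In early, mid and late log the rest of ETS 1 averaged 57.5 ± 19.7, 22.9 ± 23.4 and 10.5 ± 2.86 RPM. The rest of ITS 2 averaged 43.4 ± 5.41, 28.9 ± 15.5 and 17.8 ± 0.815 RPM. At the 3′ ends the order was the other way round. The spacer side of the 18S 3′ end averaged 35.3 ± 15.8, 357 ± 247 and 29.3 ± 2.71 RPM in early, mid and late log, against 24.7 ± 7.62, 13.96 ± 8.41 and 11.7 ± 1.59 RPM in the rest of ITS 1. The spacer side of the 25S 3′ end averaged 138 ± 30.9, 412 ± 80.9 and 694 ± 104 RPM, against 31.7 ± 17.7, 9.31 ± 1.70 and 21.2 ± 2.78 RPM in the rest of ETS 2. On the mature sides the subphase means ran from 57.0 to 109 RPM at the 18S 5′ end and from 74.2 to 91.3 RPM at the 25S 5′ end. They ran from 189 to 349 RPM at the 18S 3′ end and from 386 to 917 RPM at the 25S 3′ end. The 220 positions took 2.86% to 3.03% of the reads in the early log libraries. Their share was 3.77% to 5.54% in mid log, and 4.31% to 4.97% in late log.

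**Figure D1:**
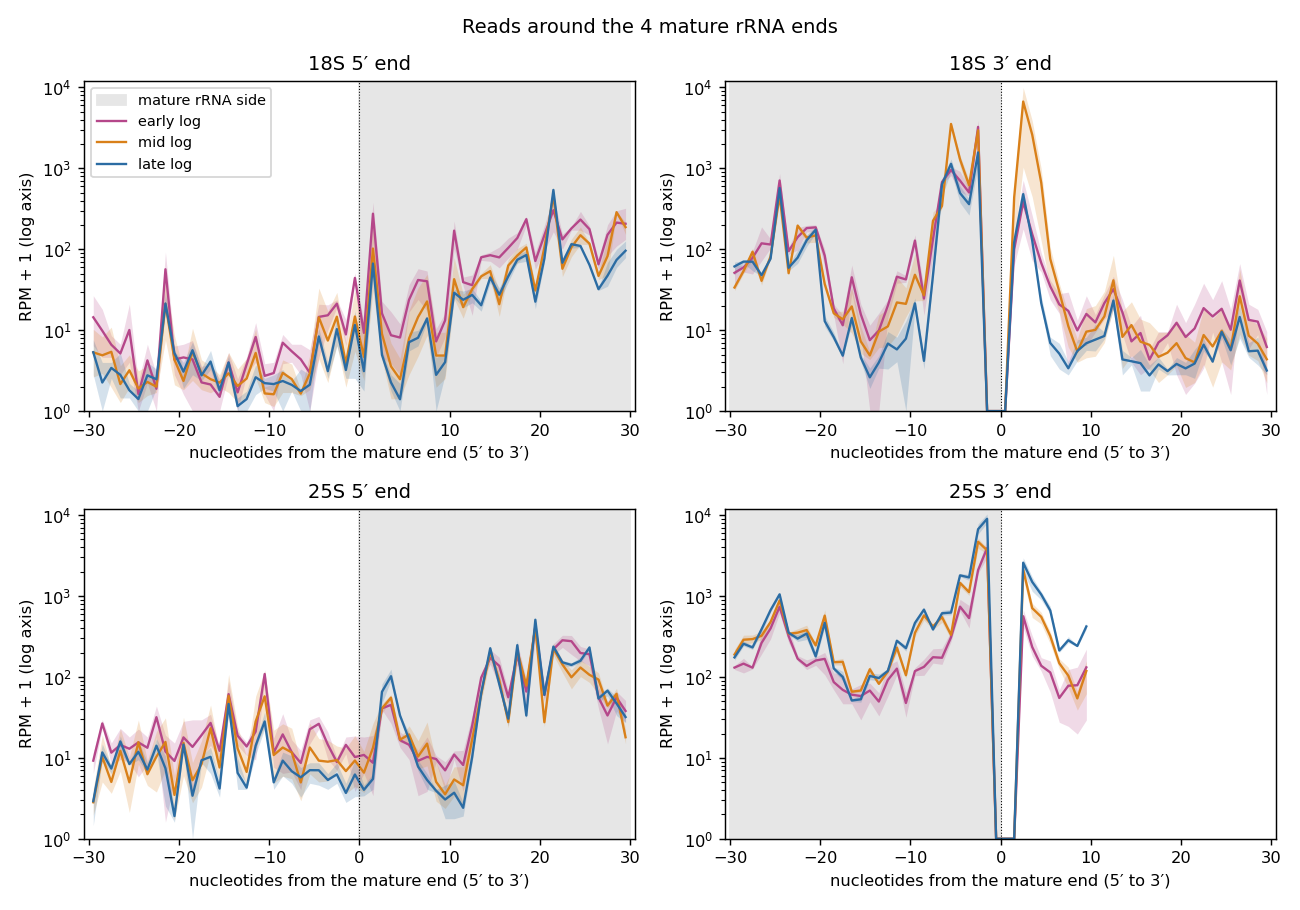
Reads at every position around the 4 mature ends, as RPM + 1 on a log axis, against the distance from the mature end in nucleotides; lines are the means of 3 libraries in early, mid and late log, shaded bands their lowest to highest value, and grey marks the mature side. Reads were sparse before the 5′ ends and piled up within about 10 nucleotides of the 3′ ends, on both sides of 3 positions that were 0 in every library.

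**Figure D2:**
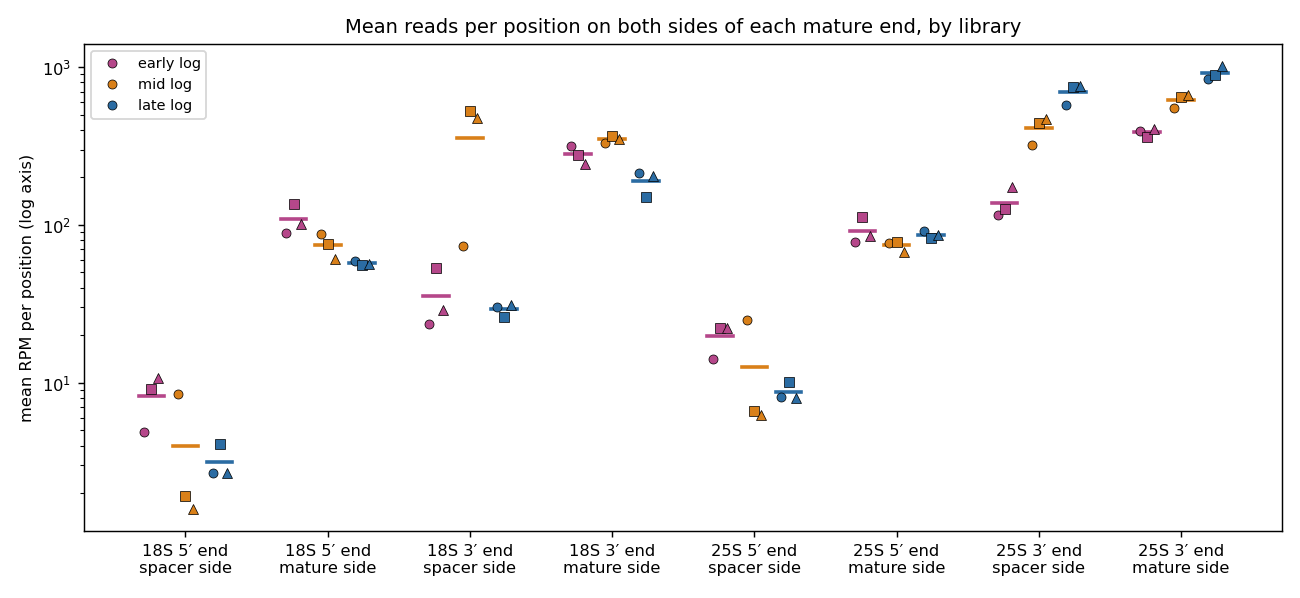
Mean RPM per position on a log axis for the spacer and mature side of each end, 1 point a library (circle, square and triangle for replicates 1, 2 and 3), with a dash at the mean of each subphase. The spacer side of the 25S 3′ end stood at 138, 412 and 694 RPM in early, mid and late log with no overlap, while mid log replicate 1 lay within or just above early log on the spacer sides of both 5′ ends.

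Of the 220 positions, 6 were listed at 0 in all 9 libraries, and all of them touch a mature 3′ end. They are positions 2499, 2500 and 2501, the last 2 bases of 18S and the first of ITS 1, and positions 6647, 6648 and 6649, the last base of 25S and the first 2 of ETS 2. The bases just before them were among the highest positions of the repeat. Position 2498 (U), before the first triplet, held 3930.1, 3357 and 2471 RPM in the early log libraries. It held 2672, 3214 and 2978 RPM in those of mid log, and 1887, 1083 and 1746 RPM in those of late log. Position 6646 (G), before the second triplet, held 2997, 3688 and 5048 RPM in the early log libraries. It held 3356, 3735 and 3932 RPM in those of mid log, and 7984, 8707 and 10334 RPM in those of late log. At the 5′ ends no position of either window was at 0 in all libraries. Outside the windows the same was seen at the 3′ end of 5.8S, where positions 3018, 3019 and 3020 were at 0. The sources used here name no step that sets these positions to 0, and whether they were removed by the authors was not tested.

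Within the fixed windows, the 25S 3′ end gained the most of the 4 ends in late against early log. In late log its spacer side held 574, 749 and 758 RPM per position, against 116, 126 and 174 RPM in early log. Mid log lay between them at 319.9, 443 and 472 RPM, and the 3 subphases did not overlap. The next 10 spacer positions, 6658 to 6667, did not keep this order. They averaged 494 ± 319, 121 ± 12.9 and 359.7 ± 47.7 RPM in early, mid and late log. The spacer changes that follow are those of the 10 window positions only. In limma on log2(mean RPM + 1) over windows that tile the repeat, the late against early change was 2.33 (SE 0.19, adjusted p = 0.000386), a 5.02-fold rise. It was 1.57 (SE 0.19, limma adjusted p = 0.00505) in mid against early log, and 0.76 (SE 0.17, limma adjusted p = 0.00625) in late against mid log. These 3 calls held when any single library was left out, with a limma adjusted p of at most 0.0353. When the median position of each window was used in place of its mean, the mid against early change was 0.88 (limma adjusted p = 0.144), so that call was lost. The mature side rose less, by 1.24 (SE 0.20, limma adjusted p = 0.00209) in late against early log and by 0.57 (SE 0.15, limma adjusted p = 0.0124) in late against mid log. Its rise of 0.68 in mid against early log (SE 0.20) had a limma adjusted p of 0.0482. This call was lost without early log replicate 2 (0.140), early log replicate 3 (0.0803), mid log replicate 2 (0.189) or mid log replicate 3 (0.175). The late against mid call of the mature side was lost without mid log replicate 2 (limma adjusted p = 0.1003). From the median position the mature side changed by -0.02 (limma adjusted p = 0.904) in late against mid log, so that call was also lost there. With the sequencing run as a term, the late against early change was 2.56 on the spacer side and 1.22 on the mature side. Only early log replicate 1 shared the run of late log, so that fit compares late log with this 1 library.

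Single spacer bases of the 25S 3′ end rose in steps that differed with the distance from the end. Position 6650 (U), the first spacer base with reads, held 679, 409 and 599 RPM in early log libraries. It had 1655, 2298 and 2398 RPM in those of mid log and 2002, 2776 and 2969 RPM in those of late log. Its change was 1.92 (SE 0.28, limma adjusted p = 0.00969) in mid against early log. In late against mid log it was 0.28 (SE 0.25, limma adjusted p = 0.420), with overlapping libraries. The 3 positions after it passed in both steps. Position 6652 (U) held 121, 172 and 117 RPM in early log libraries, against which those of mid log had 451, 579.9 and 627 RPM and those of late log 896, 1101 and 1134 RPM. It had the largest late against early rise of the boundary positions tested, 2.94 (SE 0.20, limma adjusted p = 2.68e-05). Positions 6651 (U) and 6653 (A) rose by 2.699 (SE 0.26) and 2.63 (SE 0.29) in the same comparison. Further out, at positions 6655, 6656 and 6657, mid log did not pass against early log (limma adjusted p from 0.404 to 0.875). Late log rose there against mid log by 1.49 (SE 0.19), 2.19 (SE 0.18) and 1.93 (SE 0.29), with limma adjusted p of 0.000475, 0.000107 and 0.000944. Position 6656 (U) held 235, 247 and 240.3 RPM in late log, against 37.9, 56.1 and 65.8 RPM in the mid log libraries. The early log libraries were spread at this distance, with 18.7, 84.2 and 131 RPM at position 6656. The mid against early calls at positions 6650, 6651 and 6653 were lost without mid log replicate 2 (limma adjusted p from 0.0610 to 0.0788) or replicate 3 (0.0571 to 0.0871). That at position 6652 was lost without mid log replicate 2 (0.0547).

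On the mature side of the 25S 3′ end the highest position, 6646, did not pass in mid against early log (-0.06, SE 0.49, limma adjusted p = 0.939). It rose by 1.29 (SE 0.38, limma adjusted p = 0.0227) in late against mid log and by 1.23 (SE 0.42, adjusted p = 0.0351) in late against early log, and late log did not overlap either subphase. The late against early call was lost without any one of 5 libraries (limma adjusted p from 0.0521 to 0.0987) and held without early log replicate 1. The late against mid call was lost without mid log replicate 2 (0.137) or any late log library (0.0570 to 0.0840). Position 6643 (U), chosen after its values were seen, held 909.8, 653 and 653 RPM in early log libraries, where those of mid log had 1304, 1517 and 1545 RPM and those of late log 1732, 1769 and 1902 RPM. Here mid log was already apart from early log. Averaged over positions 6643 to 6646, the level was 1819 ± 206, 2734 ± 298 and 4802 ± 609 RPM in early, mid and late log, without overlap. Over the other mature positions, 6618 to 6642, it was 172 ± 18.5, 306 ± 27.6 and 333 ± 8.85 RPM, where late log overlapped mid log.

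**Figure D3:**
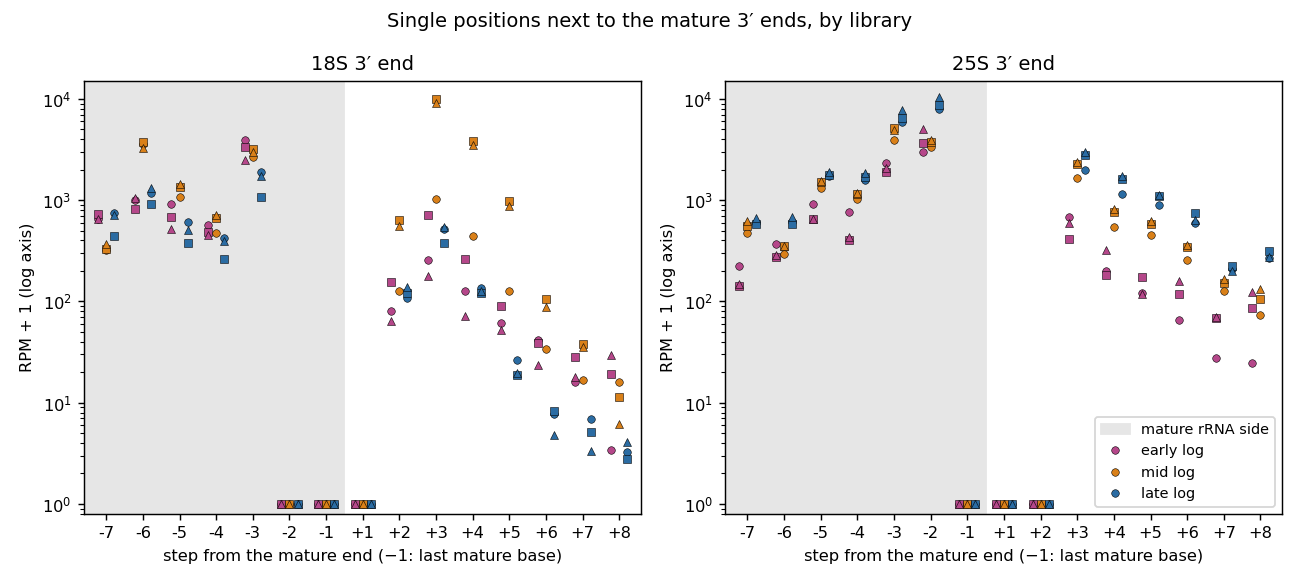
RPM + 1 on a log axis at single positions from 7 bases before to 8 bases after the mature 3′ ends of 18S (left) and 25S (right), 1 point a library, with colours for early, mid and late log and circle, square and triangle for replicates 1, 2 and 3. At the 18S end the third spacer base stood at 9967 and 9073 RPM in mid log replicates 2 and 3 alone, and at the 25S end the means of the spacer bases were ordered early, mid and late log from the third to the sixth.

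The 18S 3′ end differed most in mid log. Its spacer side held 73.0, 524 and 474 RPM per position in the mid log libraries, against 23.7, 53.3 and 29.1 RPM in those of early log. The late log libraries held 30.3, 26.2 and 31.3 RPM. Mid log lay above both other subphases without overlap, though replicate 1 was nearer to them than to its own group. The change was 2.95 (SE 0.73, limma adjusted p = 0.0320) in mid against early log, a 7.71-fold rise. It was -3.13 (SE 0.62, limma adjusted p = 0.00396) in late against mid log, and late and early log overlapped (change -0.18, SE 0.30, limma adjusted p = 0.622). The mid against early call was lost without early log replicate 2 (limma adjusted p = 0.0675), early log replicate 3 (0.1001), mid log replicate 2 (0.116) or mid log replicate 3 (0.142). Without mid log replicate 1 the changes were 3.86 in mid against early log and -4.05 in late against mid log.

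These reads sat on few bases. Position 2503 (G) held 1031, 9967 and 9073 RPM in the mid log libraries, against 257, 713 and 177 RPM in those of early log. The late log libraries held 523, 373 and 541 RPM. The change at this base was 3.83 (SE 0.88, limma adjusted p = 0.0249) in mid against early log and -3.26 (SE 0.73, limma adjusted p = 0.00668) in late against mid log. The next 2 bases, positions 2504 and 2505 (both A), followed the same course. In mid log they held 443, 3878 and 3493 RPM and 125, 982 and 881 RPM. In late against mid log the 3 largest falls were at positions 2505, 2504 and 2506 (A), with changes of -4.48 (SE 0.65), -3.83 (SE 0.68) and -3.33 (SE 0.44). At position 2504 late and early log overlapped, with 119.8 to 134 RPM in late log and 71.3 to 261 RPM in early log. Position 2505 fell below early log, with 25.4, 17.97 and 18.5 RPM in late log, against 59.7, 89.2 and 51.3 RPM in early log (change -1.63, SE 0.30, limma adjusted p = 0.00190). The mid against early calls at these 3 bases were lost without early log replicate 3, mid log replicate 2 or mid log replicate 3 (limma adjusted p from 0.0726 to 0.121), and that at position 2505 also without early log replicate 2 (0.0688). Averaged over positions 2502 to 2506 the level was 147 ± 91.7, 2094 ± 1516 and 151 ± 20.4 RPM in early, mid and late log. Over positions 2507 to 2530 it was 13.6 ± 7.16, 9.76 ± 7.23 and 5.17 ± 0.880 RPM with overlapping libraries, so no mid log excess was seen there. When the median position of each window was used in place of its mean, the mid against early change of this side was -0.85 (limma adjusted p = 0.430) and the late against mid change -0.37 (limma adjusted p = 0.745), so both calls were lost. The late against early change, which did not pass from the mean, was -1.22 (limma adjusted p = 0.0300).

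The mature side of the 18S 3′ end fell in late log. It held 213, 149 and 204 RPM per position in late log, against 319, 276 and 244 RPM in early log, with 329, 368 and 351 RPM in the mid log libraries. The change was -0.57 (SE 0.16, limma adjusted p = 0.0173) in late against early log. It kept its direction but not its call once the median change over all windows was set to 0 (-0.32, limma adjusted p = 0.124). In late against mid log it was -0.90 (SE 0.12, limma adjusted p = 0.000483). From the median position the late against mid change was 0.19 (limma adjusted p = 0.369), so the call was lost and the direction turned. The bases near the end did not change alike. Position 2498, whose values are given above, changed by -1.06 (SE 0.32, limma adjusted p = 0.0217) in late against early log and by -0.95 (SE 0.25, adjusted p = 0.0143) in late against mid log. The late against early call at position 2498 was lost without early log replicate 2 (limma adjusted p = 0.0566), late log replicate 2 (0.134) or late log replicate 3 (0.0521). Its late against mid call was lost without mid log replicate 2 (0.0627) or late log replicate 2 (0.0868). Position 2495 (U), chosen after its values were seen, held 3609, 3753 and 3246 RPM in the mid log libraries, against 1004, 813 and 1043 RPM in those of early log. In late log it held 1179, 922 and 1306 RPM, and mid log replicate 1 was not apart at this base. Its neighbour at position 2494 (A), also chosen after its values were seen, went the other way, with 324, 331 and 372 RPM in the mid log libraries, against 658, 726 and 647 RPM in those of early log. The 3 largest late log falls among separated boundary calls lay at bases 11, 12 and 20 of the mature side, counted back from the last base of 18S. Position 2489 (G) held 4.08, 7.19 and 3.08 RPM in late log, against 44.0, 53.3 and 37.1 RPM in early log (change -3.03, SE 0.38, limma adjusted p = 0.000306). Positions 2490 (A) and 2481 (A) changed by -3.08 (SE 0.81) and -2.67 (SE 0.29). Without late log replicate 3, in which it was listed at 0, position 2490 changed by -1.92. Position 2491 (A) had the third largest mid against early fall among separated boundary calls, -1.64 (SE 0.46, limma adjusted p = 0.0419), which held without mid log replicate 1 and was lost without any one of the other libraries (0.0523 to 0.150).

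The 18S 5′ end lost reads on both sides in late log. The spacer side held 2.69, 4.11 and 2.67 RPM per position in late log, against 4.91, 9.16 and 10.6 RPM in early log, with 8.44, 1.91 and 1.58 RPM in the mid log libraries. These means rest on 104 to 206 reads a library in late log and 112 to 1279 reads in early log. The late against early change was -1.11 (SE 0.31, limma adjusted p = 0.0173). It was lost without early log replicate 2 (limma adjusted p = 0.0885), early log replicate 3 (0.0762), late log replicate 1 (0.0630) or late log replicate 3 (0.0614). With the run as a term, which sets late log against early log replicate 1 alone, it was -0.52. From the median position it was -0.76 (limma adjusted p = 0.229). Neither the mid against early change (-1.10, SE 0.65, limma adjusted p = 0.224) nor the late against mid change (-0.01, SE 1.20, adjusted p = 0.993) passed. Without mid log replicate 1 the mid against early change was -1.70 (limma adjusted p = 0.01002). The mature side held 58.9, 55.7 and 56.3 RPM in late log, against 89.2, 136 and 101 RPM in early log. The mid log libraries lay between them without overlap, at 87.1, 76.2 and 60.8 RPM. The late against early change of -0.90 (SE 0.17, limma adjusted p = 0.00337) held without each library. Neither the mid against early change (-0.53, SE 0.22, limma adjusted p = 0.119) nor the late against mid change (-0.37, SE 0.14, limma adjusted p = 0.0512) passed. From the median position both did, at -0.91 (limma adjusted p = 0.00682) and -0.45 (limma adjusted p = 0.0425).

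At site A1 the last spacer base passed in late against early log and the first mature base did not, and the difference between them was not tested. Position 700 (U), the last base of ETS 1, held 36.8, 50.1 and 42.8 RPM in early log libraries, where those of mid log had 30.7, 6.16 and 4.45 RPM and those of late log 14.1, 16.2 and 1.54 RPM. Late log lay below early log at this base, a change of -2.34 (SE 0.64, limma adjusted p = 0.0136), which was lost without early log replicate 2 (0.0586). Position 701 (U), the first base of 18S, held at most 11.4 RPM in any library, and its libraries overlapped in all 3 comparisons (without early log replicate 1 the late against early change was -2.06, limma adjusted p = 0.00736). The highest spacer position, 679 (U), held 15.9, 27.6 and 17.7 RPM in late log, against 22.3, 53.3 and 91.2 RPM in early log, and these overlapped. Inside 18S, position 711 (A) held 77.7, 23.3 and 24.1 RPM in the mid log libraries and 24.5, 31.1 and 28.5 RPM in late log, against 101, 183 and 222 RPM in early log. Its change was -2.15 (SE 0.49, limma adjusted p = 0.0247) in mid against early log and -2.48 (SE 0.30, adjusted p = 0.000224) in late against early log. Position 716 (G) changed by -1.96 (SE 0.38, limma adjusted p = 0.0168) and -1.51 (SE 0.29, adjusted p = 0.00252) in the same comparisons. The mid against early calls at positions 711 and 716 were lost without early log replicates 2 or 3 or mid log replicates 2 or 3, each left out singly (limma adjusted p from 0.0503 to 0.104). The highest mature position went against its surroundings. Position 722 (A) held 543, 517 and 561 RPM in late log, against 164, 450.1 and 296 RPM in early log. Its rise of 0.95 (SE 0.31, limma adjusted p = 0.0285) was lost without any one late log library (0.0627 to 0.0895). This base made up 31.6% ± 1.36 of the reads of its side in late log, against 8.97% ± 2.55 in early log.

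At the 25S 5′ end the spacer side fell in late log, and the mature side did not pass. The spacer side held 8.10, 10.2 and 8.01 RPM per position in late log, against 14.2, 22.4 and 22.3 RPM in early log, with 25.03, 6.58 and 6.28 RPM in the mid log libraries. The late against early change was -1.06 (SE 0.24, limma adjusted p = 0.00740). It held without each library but was -0.65 with the run as a term, which sets late log against early log replicate 1 alone. In mid against early log the change was -0.84 (SE 0.62, limma adjusted p = 0.317), and without mid log replicate 1 it was -1.45 (limma adjusted p = 0.0107). The mature side held 91.7, 82.9 and 86.1 RPM in late log, against 77.4, 112 and 84.6 RPM in early log (change -0.05, SE 0.15, limma adjusted p = 0.760). Position 3241 (A), the highest of the spacer side, held 21.8, 35.9 and 23.9 RPM in late log, against 113, 121 and 88.4 RPM in early log, a change of -1.97 (SE 0.26, limma adjusted p = 0.000406). Positions 3251 (A) and 3252 (G), on either side of site C1, held 2.31 to 17.8 RPM and 2.40 to 17.1 RPM over the 9 libraries and passed in no comparison. Without early log replicate 1, position 3252 changed by -1.60 in late against early log (limma adjusted p = 0.0203). The highest mature position, 3271 (A), held 532, 482 and 511 RPM in late log, against 287, 518 and 465 RPM in early log (change 0.31, SE 0.23, limma adjusted p = 0.288).

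**Figure D4:**
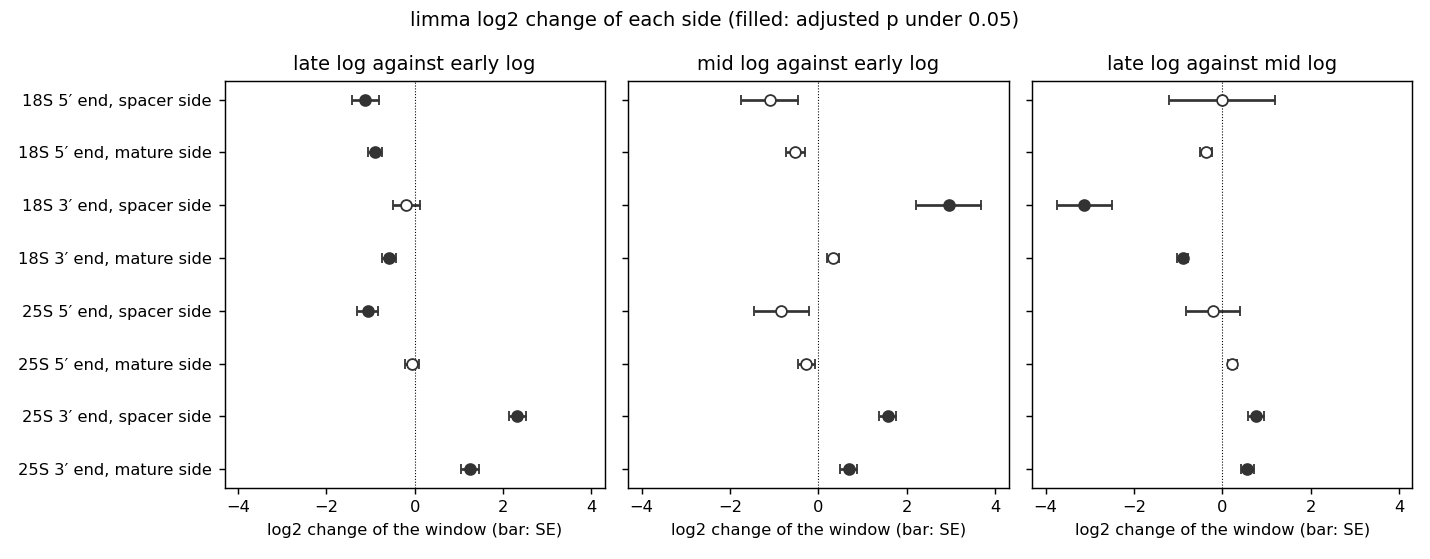
limma log2 change of the spacer and mature window of each end in late against early, mid against early and late against mid log, with bars of 1 SE; filled points have an adjusted p under 0.05 over all windows. The spacer side of the 25S 3′ end rose by 2.33, 1.57 and 0.76, and the spacer side of the 18S 3′ end moved by 2.95 and -3.13 in the comparisons with mid log.

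Position by position, the boundaries as a whole were called about as often as the repeat in the comparisons with early log, and the shares stood further apart in late against mid log. In late against early log 211 of the 220 positions passed the filter of a mean of 1 RPM over the 6 libraries. Of these, 106 passed an adjusted p of 0.05 in limma, 33 higher and 73 lower, which is 50.2% beside 48.2% of all 6746 positions tested. At the 25S 3′ end 21 of 29 positions tested on the mature side and all 8 tested on the spacer side were higher, beside 12.5% of all positions tested. At the 18S 5′ end 23 of 30 tested on the mature side and 5 of 27 on the spacer side were lower, beside 35.7% of all. At the 25S 5′ end 13 of 30 on the spacer side were lower. The median change over the positions tested was 2.18 on the spacer and 0.84 on the mature side of the 25S 3′ end. It lay between -1.45 and -0.23 on the other 6 sides, and was -0.44 over all positions tested. Once that median was set to 0, 45 of the 220 positions were called higher and 40 lower, so the excess of lower calls depended on the scaling. edgeR on the recovered reads called 44 higher and 46 lower.

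In mid against early log 43 of 210 boundary positions tested were called, beside 19.2% of all 6748 positions tested. Of these 26 were higher, beside 6.48% of all, and 17 lower, beside 12.7%. The higher calls were 17 on the mature and 5 on the spacer side of the 25S 3′ end, 3 on the spacer side of the 18S 3′ end and 1 on its mature side. With the median of all positions (-0.27) set to 0 there were 29 higher and 10 lower calls, and edgeR on the recovered reads called 30 higher and 7 lower. This comparison rested on mid log replicates 2 and 3. Without replicate 2 limma called 0 boundary positions (51 at an unadjusted p under 0.05) and 3 over the whole repeat, where the main fit called 1293. Without replicate 3 it called 2, at positions 6639 and 6652, and 10 over the repeat. Without mid log replicate 1 it called 80, and 1922 over the repeat. The 80 were 31 higher and 49 lower, so the balance turned without that library. limma called 23 without early log replicate 2 and 20 without early log replicate 3, beside 570 and 540 over the repeat. The loss of calls was thus seen over the whole repeat. In late against mid log 49 of 207 were called, which is 23.7%, beside 38.8% of all 6722 positions tested. Of these 22 were higher, beside 16.6% of all, and 27 lower, beside 22.2%. On the spacer side of the 25S 3′ end 7 of 8 tested were higher. Without late log replicate 3 the late against early count was 63 in place of 106, beside 2090 in place of 3250 over the whole repeat.

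Among the windows of up to 30 positions that tile the repeat, 6 of the 8 boundary windows passed in late against early log, beside 64.8% of all 230 windows. Of these 2 were higher, beside 20% of all windows, and 4 lower, beside 44.8%. In mid against early log 3 of 8 passed, beside 20.9% of all. All 3 were higher, beside 7.39% of all windows, of which 13.5% were lower. In late against mid log 4 of 8 passed, beside 44.7% of 228 windows. Of these 2 were higher, beside 21.9%, and 2 lower, beside 22.8%. The median change over all windows was -0.23, -0.12 and -0.09 in these comparisons. With it set to 0 the boundary windows kept their direction except 3, and none of these had passed. They were the spacer side of the 18S 5′ end in late against mid log, the spacer side of the 18S 3′ end in late against early log and the mature side of the 25S 5′ end in late against early log.

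The spacer level was then set against the mature level within each library, a ratio that does not depend on what RPM is divided by. At the 25S 3′ end it was 0.682, 0.837 and 0.747 in late log and 0.581, 0.689 and 0.710 in mid log, against 0.294, 0.350 and 0.429 in early log. All 6 later libraries lay above early log, while late log overlapped mid log. The spacer side here is the 10 window positions only. The next 10 averaged 494 ± 319, 121 ± 12.9 and 359.7 ± 47.7 RPM in early, mid and late log. They did not keep this order, and the ratio with a wider spacer side was not tested. An exact permutation test of F across the 3 subphases, whose smallest possible p is 0.00357, gave p = 0.0107. With the median per position in place of the mean the exact permutation p was 0.114, so the call was lost. At the 18S 3′ end the ratio was 0.222, 1.42 and 1.35 in mid log, against 0.0742, 0.193 and 0.119 in early log, and 0.142, 0.175 and 0.154 in late log. In mid log replicates 2 and 3 the spacer side thus exceeded the mature side, which it did at no other end or library. The exact permutation p was 0.0179, and it rested on few bases, as with the median per position in place of the mean it was 0.600. At the 18S 5′ end the ratio ran from 0.0251 to 0.105 over the 9 libraries and did not pass (exact permutation p = 0.375). At the 25S 5′ end it did not pass either (exact permutation p = 0.225). There the late log libraries, at 0.0883, 0.123 and 0.0931, lay below the early log libraries, at 0.183, 0.200 and 0.264. Mid log replicate 1 was the highest of all at 0.326, and mid log replicates 2 and 3 stood at 0.0844 and 0.0928. Without mid log replicate 1, which was picked out from these same values, the exact permutation p was 0.0179 at the 18S and 0.0179 at the 25S 5′ end. Without any other single library it ran from 0.364 to 0.654 and from 0.196 to 0.389.

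**Figure D5:**
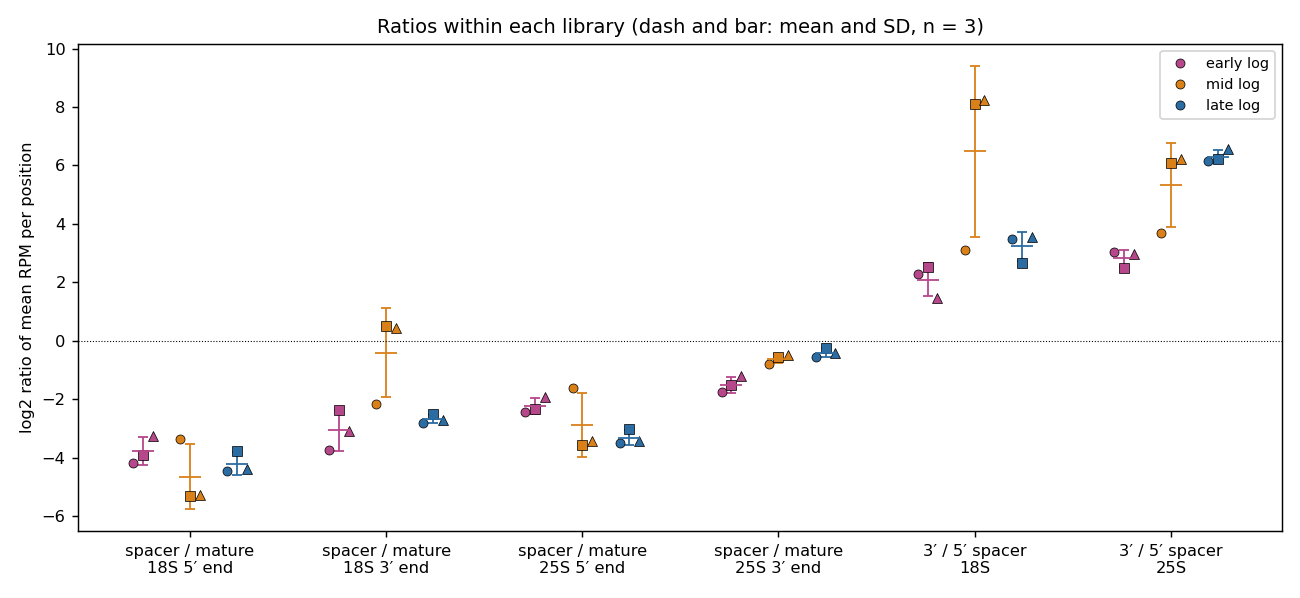
log2 ratio of mean RPM per position within each library, for the spacer over the mature side at each end and for the 3′ over the 5′ end on the spacer side of 18S and of 25S; points are libraries (circle, square and triangle for replicates 1, 2 and 3), dashes and bars the mean and SD of 3. On the 3′ over 5′ measure the 25S log2 ratio averaged 6.31 ± 0.226 in late log, against 2.83 ± 0.292 in early log, and mid log replicate 1 lay below mid log replicates 2 and 3.

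The 3′ ends were then set against the 5′ ends of the same rRNA on the spacer side, outside the annotated mature rRNA. Reads of nascent and of processed RNA cannot be told apart next to the 3′ ends there either. For 25S the 3′ side holds 10 positions and the 5′ side 30. The next 10 positions past the 3′ side averaged 494 ± 319, 121 ± 12.9 and 359.7 ± 47.7 RPM in early, mid and late log. The 5′ side fell in late log along with the rest of ITS 2 (43.4 ± 5.41 RPM in early and 17.8 ± 0.815 RPM in late log). For 25S the ratio was 70.9, 73.7 and 94.6 in late log and 12.8, 67.3 and 75.2 in mid log, against 8.15, 5.62 and 7.77 in early log (exact permutation p = 0.0107 over 3 subphases). The mean log2 difference between late and early log was 3.48, and 3.28 against early log replicate 1 alone, the library that shared its sequencing run. For 18S the ratio was 8.65, 274 and 300.2 in mid log, against 4.82, 5.82 and 2.73 in early log, and 11.3, 6.37 and 11.7 in late log. Its exact permutation p was 0.0750, and 0.00357 without mid log replicate 1. Of these 6 ratio tests, 3 had an exact permutation p under 0.05, and their p adjusted over the 6 were 0.0321 for both 25S ratios and 0.0357 for the 18S 3′ end. Between 2 subphases the exact permutation test has 20 assignments and cannot give less than 0.10, which it gave for late against early log in 4 of the 6 ratios. On the mature sides, where the ratio was not tested, the 3′ end exceeded the 5′ end of 25S 9.18-, 10.8- and 11.8-fold in late log, against 5.08-, 3.22- and 4.78-fold in early log. For 18S it did so 2.03- to 5.77-fold over the 9 libraries.

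Reads on the spacer side of the 18S 3′ end were concentrated on the bases nearest to it. Its 5 nearest spacer bases held 63.8% ± 19.3, 91.9% ± 11.4 and 84.9% ± 4.12 of that side's reads in early, mid and late log. An even spread would put 16.7% there. At the 25S 5′ end the corresponding shares were 12.2% ± 3.19, 10.5% ± 0.484 and 9.05% ± 1.43. At the 18S 5′ end the last 5 bases of ETS 1 held 42.0% ± 8.96, 38.7% ± 5.20 and 32.7% ± 11.03, above an even spread but with few reads. Among the 100 highest positions of each library, 6 to 9 were boundary positions in early log, 13 in mid log replicates 2 and 3, and 10 in mid log replicate 1 and in each late log library, and all of them lay at the 3′ ends. Position 6646 was the highest position of the whole repeat in all 3 late log libraries and in early log replicates 2 and 3. Position 2503 ranked 2 in mid log replicates 2 and 3, and no better than 68 in any early or late log library.

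The bases that carried the reads differed from side to side. On the spacer side of the 18S 3′ end G made up 4 of 30 positions, or 13.3%. In early, mid and late log 37.2% ± 9.26, 58.7% ± 8.70 and 56.0% ± 5.39 of that side's reads ended on G. Position 2503 alone held 33.7% ± 12.4, 58.1% ± 9.59 and 54.2% ± 5.84, so 1 of the 4 G carried most of that share. On the mature side of the same end U made up 23.3% of the positions and took 54.3% ± 1.77, 64.4% ± 2.65 and 52.4% ± 1.82 of the reads. On the spacer side of the 25S 5′ end A made up 33.3% of the positions and took 50.6% ± 6.42, 55.4% ± 1.67 and 54.6% ± 3.46 of the reads. Beyond the 25S 3′ window late log again exceeded mid log, while early log, which was widely spread, lay above mid log and overlapped late log. The next 10 spacer positions, 6658 to 6667, averaged 494 ± 319, 121 ± 12.9 and 359.7 ± 47.7 RPM in early, mid and late log. The late log libraries ran from 315 to 409.7 RPM and those of mid log from 107 to 133 RPM, without overlap. The early log libraries ran from 141 to 762 RPM there. At the 18S 3′ end the next 10 spacer positions averaged 16.9 ± 10.1, 8.39 ± 7.71 and 4.68 ± 0.776 RPM.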

How the data were processed

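NET-seq libraries of 9 cultures were analysed, 3 in each subphase. Per the methods, the authors collapsed duplicate reads, which carried a molecular barcode, with Fqtrim, trimmed linkers with Cutadapt (version 3.4 per the labels), aligned to R64 with STAR 2.7.3a and counted read 5′ ends per strand with bedtools 2.28.0. The deposited values are RPM, and their columns of mean and test results were not used. Whole reads were recovered from the RPM steps for 99.9% to 100% of positions (tolerance 0.01 reads), and edgeR 4.0.16 on those reads called 90, 37 and 42 boundary positions in late against early, mid against early and late against mid log. The main test was limma 3.58.1 on log2(RPM + 1) over positions that averaged 1 RPM or more, 2 subphases at a time, with Benjamini-Hochberg adjustment over the whole repeat and a threshold of 0.05, and likewise on windows of up to 30 positions. A fold change on this scale understates the change of low values. Ratios within libraries were compared by exact permutation. Scripts were tested on simulated data. Positions were named by rule: the highest of each side, those at 0 in all libraries, those on either side of each end, and the 3 largest rises and falls among separated calls in each comparison. The windows, lists and rule were chosen with earlier results of these data known. Replicates are called biological in the design text, and floors cover counting error only.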

Additional observations from a re-analysis of the deposited data

How the results depend on the processing

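Counts of positions and windows were recomputed with pseudocounts of 0.1 and 10, other scalings, one fit over all 9 libraries and a replicate block. Filters and edgeR and DESeq2 were tried for positions only, and window size and the median position for windows. The ratios were recomputed with the block, with medians and with other sets of positions, and all were recomputed without each library. The spacer side of the 25S 3′ end kept the same 10 positions at every window size and with 10 or 20 positions a side. How its results depend on a wider spacer side was therefore not tested. In late against early log the 106 boundary positions were 63 to 138 without single libraries. The 6 windows were 5 to 6 without single libraries and 4 with all 9 libraries in one fit. With the sequencing run as a term only early log replicate 1 stands against late log, so no counts are given from that fit. In mid against early log the 43 positions were 0 to 80 and the 3 windows 1 to 5 without single libraries, and the positions were 64 (31 higher, 33 lower) with all 9 libraries in one fit. Over the whole repeat the position calls of this comparison ran from 3 to 1922 without single libraries. In late against mid log the 49 positions were 35 to 69 and the 4 windows 3 to 5, or 2 windows from the median position. Replicate numbers recur in all subphases but do not pair the libraries, since same-numbered libraries correlated in their deviations at r from -0.47 to 0.36. A replicate block called 20 positions and 1 window in mid against early log and gave an exact permutation p of 0.0556 for the spacer over mature ratio at the 18S 3′ end. It left the other counts within 1.5 times and the other ratios on their side of the threshold. That 18S 3′ ratio also had an exact permutation p of 0.600 from medians and 0.0536 without the highest position of each side. Without the 3 positions nearest to the end it passed (exact permutation p = 0.0250) with late below early log, not above it. For the other ratios, the exact permutation p at the 25S 3′ end was 0.114 from medians, at the 25S 5′ end 0.0429 with 10 positions a side, and for the 3′ over 5′ ratio of 18S 0.00357 from medians and 0.0250 without the 3 nearest positions. Without single libraries the exact permutation p of the spacer over mature ratio ran from 0.0179 to 0.654 and from 0.0179 to 0.0714 at the 18S 5′ and 3′ ends, and from 0.0179 to 0.389 and from 0.00714 to 0.0214 at the 25S 5′ and 3′ ends. For the 3′ over 5′ ratio of 18S and 25S it ran from 0.00357 to 0.114 and from 0.00357 to 0.0464. The mature side of the 18S 3′ end changed by -0.90 in mid against early log (limma adjusted p = 0.00974) from the median position, against 0.33 from the mean. The cause of these changes was not tested. The spacer side of the 18S 5′ end held 112 reads in early log replicate 3 and 104 to 206 reads in the late log libraries, which limits what can be said there.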
